A study of Mus musculus with 17 samples.

Results

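Peptidyl arginine deiminases are a small family, for the most part calcium-dependent enzymes, encoded by Padi1, Padi2, Padi3, Padi4 and Padi6, which lie side by side in the mouse genome. Padi2 was picked because of its high counts in GFP+ RPE relative to central GFP- RPE in these libraries, and the other members were added by family, so that 5 of the 22253 genes in the count table are described, 1 of them picked by its values. The libraries were made from manually collected retinal pigment epithelium (RPE) cells of 2-month-old Serpine3 GFP/+ mice, in which a GFP reporter was inserted at the start codon of Serpine3, so that GFP marks cells using the promoter of this serpin gene and each cell keeps an unmodified allele. All groups carried this allele and none was treated. The study compared 6 libraries of GFP+ cells from the peripheral RPE (mice 1, 2, 3, 4, 5 and 7), 5 of GFP- cells from the peripheral RPE (mice 1, 2, 4, 5 and 7) and 6 of GFP- cells from the central RPE (mice 1, 2, 4, 5, 6 and 7), here called GFP+ RPE, peripheral GFP- RPE and central GFP- RPE. Each library is a pool of 10 to 15 cells according to the sample labels, and the libraries of mouse 1 carry more than 1 animal number. Since a count is relative to all RNA in a pool, fewer cells that use a gene and less of its RNA per cell cannot be told apart.

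The enzymes of this family turn arginine residues of proteins into citrulline, which removes a positive charge and can change how a protein folds and binds. PADI2 is the most widely distributed member and is known from brain, muscle and secretory tissue, PADI1 and PADI3 act in the epidermis and hair follicle on keratins and filaggrin, PADI4 citrullinates histones in granulocytes and takes part in forming extracellular traps, and PADI6 is needed in the oocyte and early embryo. In the eye, citrullinated proteins have been described in the retina, where vimentin and glial fibrillary acidic protein are among the known substrates.

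In GRCm38 with the GENCODE M21 annotation, the 5 genes lie on chromosome 4 in the order Padi6 (140727355 to 140742643), Padi4 (140745865 to 140774236), Padi3 (140785365 to 140810648), Padi1 (140812983 to 140845778) and Padi2 (140906344 to 140952586). Padi2 is on the plus strand and the other 4 are on the minus strand. The noncoding gene Gm13032 overlaps Padi1, and Gm13031 and the small nuclear RNA gene Gm26226 overlap Padi2. None of these overlapping genes is a row of the count table. Of the 3705 stretches of 50 bases in the Padi1 exons, 1122 (30.3%) also occur in the transcripts of another gene, for the most part Gm13032 on the opposite strand. In Padi2 the share is 151 of 4962 (3.04%), and 0 of them occur in another Padi gene. Whether the counting used strand is not given in the sources used here, and the counts of Padi1 are uncertain to that extent.

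The 250 bases before the RefSeq start are shown for the pair of members that were expressed (build GRCm38.p6), with matches of the GC box (GGGCGG on either strand) in capitals. The Padi2 window is chr4:140906110-140906359 on the plus strand and the Padi1 window is chr4:140845779-140846028 on the minus strand.
Padi2: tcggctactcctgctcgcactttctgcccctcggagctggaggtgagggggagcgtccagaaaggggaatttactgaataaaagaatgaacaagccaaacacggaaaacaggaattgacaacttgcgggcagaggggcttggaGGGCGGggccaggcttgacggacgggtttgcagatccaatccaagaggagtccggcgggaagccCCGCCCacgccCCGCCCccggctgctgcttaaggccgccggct
Padi1: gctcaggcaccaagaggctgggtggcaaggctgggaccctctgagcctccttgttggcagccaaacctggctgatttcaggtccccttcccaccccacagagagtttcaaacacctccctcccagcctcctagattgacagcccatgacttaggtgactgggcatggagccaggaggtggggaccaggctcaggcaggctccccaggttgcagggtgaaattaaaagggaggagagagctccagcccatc
The Padi2 window holds 17 CpG dinucleotides and 3 GC boxes, whereas the Padi1 window holds 0 of each. The median over 32851 promoters is 6 CpG, 23.5% of them hold at least as many as Padi2, and 32.7% hold a GC box. The windows of Padi3, Padi4 and Padi6 hold 3, 3 and 1 CpG and 1, 0 and 1 GC boxes. GC content is similar in the expressed pair, 61.6% for Padi2 and 60% for Padi1, against a median of 52.4%. The letters TAATCC, an OTX site, occur on neither strand of the 5 windows (6.25% of all promoters hold them), and neither do the letters CATGTG of the M-box (12.3%). The letters TATAAA occur in the Padi4 window and in 12.4% of all promoters.

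Library totals lay between 9896118 and 22467079 counts. A library was taken to detect a gene when it held more than 3 counts, the limit that a count of 0 allows, which corresponds to between 0.116 and 0.554 normalized CPM, that is counts scaled to a common library size. Of 10 RPE markers, 9 were above this floor in each group and Best1 was not in any. The share of counts in 13 mitochondrial genes moved with the groups, being 7.95% ± 5.70 (SD, n = 6) in GFP+ RPE, 19.7% ± 6.98 (n = 5) in peripheral GFP- RPE and 29.1% ± 12.2 (n = 6) in central GFP- RPE. Serpine3 was counted in every GFP+ library (107 to 576 counts), had 5 counts in peripheral GFP- RPE of mouse 1, and had 0 counts in the other 10 GFP- libraries.

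Padi2 was detected in 17 of 17 libraries and Padi1 in 12. Padi4 was detected in 3 libraries, and Padi3 and Padi6 in 0. Summed over the 17 libraries, Padi2 had 55082 counts, Padi1 had 2105, Padi4 had 146, Padi6 had 3 and Padi3 had 1. Padi2 therefore supplied nearly all counts of the family, and a second member, Padi1, was measured at a lower level in most libraries.

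**Figure D1:**
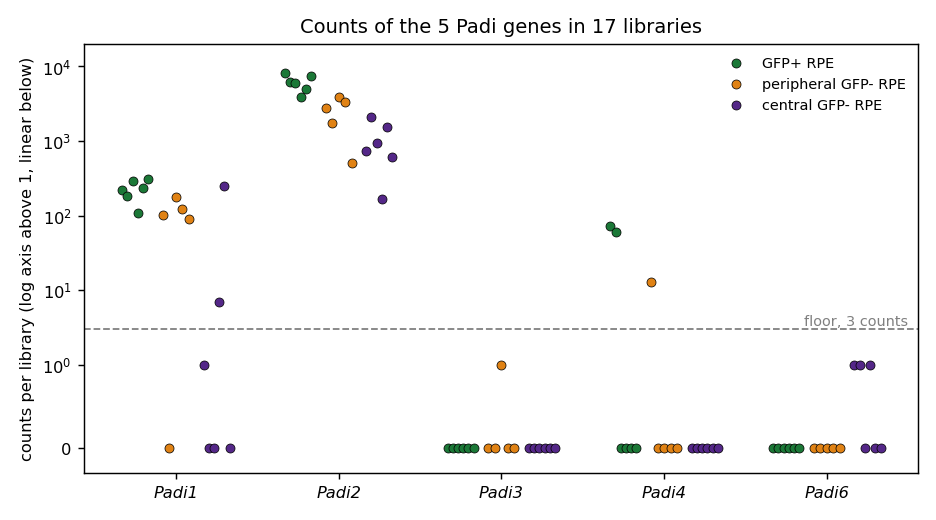
Counts of the 5 Padi genes in each of the 17 libraries, on a log axis that is linear below 1, with points colored by group and the floor of 3 counts as a dashed line. Padi2 lies above the other members in every library, Padi1 is above the floor in 12 libraries, Padi4 in 3, and Padi3 and Padi6 in 0.

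Padi2 counts in GFP+ RPE were 8077 in mouse 1, 6213 in mouse 2, 6065 in mouse 3, 3915 in mouse 4, 5050 in mouse 5 and 7393 in mouse 7. After normalization these were 313, 295, 270, 296, 356 and 353 CPM, a mean of 314 ± 34.3 (SD, n = 6). The values were close to each other, with a coefficient of variation of 10.9%, and 0.516% of the 10660 genes compared had a lower one in this group. These values are among those that picked Padi2, and the genes compared were not matched for level, so the rank is a description only. Peripheral GFP- RPE held 2737, 1768, 3918, 3304 and 502 counts in mice 1, 2, 4, 5 and 7, that is 153, 91.6, 189, 262 and 49.6 CPM. The mean was 149 ± 83.1 CPM (n = 5), with mouse 5 highest and mouse 7 lowest. Central GFP- RPE held 738, 2130, 955, 166, 1541 and 610 counts in mice 1, 2, 4, 5, 6 and 7, that is 62.1, 117, 95.3, 30.7, 116 and 67.6 CPM, with a mean of 81.4 ± 34.0 (n = 6). The coefficient of variation was 55.8% in peripheral and 41.7% in central GFP- RPE, and 36.6% and 8.50% of the genes had a lower one there.

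Per kilobase of exon, the level of Padi2 was 62.6 ± 6.85 CPM in GFP+ RPE, 29.7 ± 16.6 in peripheral GFP- RPE and 16.2 ± 6.78 in central GFP- RPE. This placed Padi2 at percentile 96.8 ± 0.432 of 21301 protein-coding genes in GFP+ RPE, at 92.8 ± 4.52 in peripheral GFP- RPE and at 89.9 ± 2.94 in central GFP- RPE. These percentiles include genes at 0 and differ with the library. A Padi1 count of 0 lay at percentile 41.9 in peripheral GFP- RPE of mouse 2 and at 55.8 in central GFP- RPE of mouse 7. The percentiles are therefore not a measure of the difference between groups. Padi2 was well above the floor in all 3 groups, the central cells included.

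The fitted difference of Padi2 between GFP+ RPE and central GFP- RPE was 1.91 on the log2 scale (SE 0.29), or 3.76-fold, and the libraries of the groups did not overlap. Padi2 was picked by this contrast, so the value is a description with no test. In the same contrast 0.0431% of the 9286 genes tested were called, at an adjusted p below 0.01 and an absolute log2 fold change above 1, and 0.862% did not overlap with GFP+ RPE higher. The difference ranged from 1.76 to 2.32 over 21 other ways of fitting it.

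The comparison of GFP+ RPE with peripheral GFP- RPE asks whether the level follows GFP within the periphery. Padi2 was 2.11-fold higher in GFP+ RPE (log2 1.08, SE 0.33), and the lowest GFP+ library (270 CPM) was just above the highest peripheral GFP- library (262 CPM). The difference did not pass the test over all genes (edgeR quasi-likelihood test, adjusted p = 0.604), and a fit that paired libraries of the same mouse (replicate block) gave 1.34 (adjusted p = 0.443). Serpine3, the reporter gene, was 189-fold higher in GFP+ RPE without overlap and did not pass this edgeR test either (adjusted p = 0.255). Against central GFP- RPE its adjusted p in the edgeR test was 0.0699. A difference that did not pass is therefore not shown to be absent. In this comparison 0.0396% of 10102 genes were called and 0.624% did not overlap with GFP+ RPE higher. The GFP+ libraries are the same as in the contrast that picked Padi2, so the values are not independent of that choice. Without the peripheral libraries of mice 2 and 7, the difference was 0.64.

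The comparison of peripheral with central GFP- RPE asks whether the level follows position without GFP. Padi2 was 1.79-fold higher at the periphery (log2 0.84, SE 0.45), the libraries overlapped, and the difference did not pass the test (edgeR quasi-likelihood test, adjusted p = 1.00). The replicate block gave 0.80 (adjusted p = 0.996), and under it the median of all genes tested was 0.49. Of 9535 genes, 0% were called here by edgeR's quasi-likelihood test, 98 were higher and 159 lower at an unadjusted p under 0.05, and DESeq2 called 18 higher and 11 lower. The order of the means was GFP+ RPE, peripheral GFP- RPE and central GFP- RPE, and the peripheral group differed from neither neighbor beyond the threshold. This comparison shares the central libraries with the contrast that picked Padi2.

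In all, 5 mice gave a library of each group, with the animals labeled mouse 1 counted as 1. Padi2 was highest in GFP+ RPE in 5 of 5 of them. This order restates that all GFP+ libraries lay above all GFP- libraries, in values that in part picked Padi2, and is no separate evidence. In mouse 1 the GFP+ library held 5.05 times the CPM of the central library, in mouse 2 it held 2.52 times, in mouse 4 it held 3.10 times, in mouse 5 it held 11.6 times and in mouse 7 it held 5.21 times. Relative to the peripheral GFP- library of the same mouse, the folds were 2.05, 3.22, 1.57, 1.35 and 7.10. The peripheral GFP- library exceeded the central one in 3 of 5 mice, by 2.46 in mouse 1, 1.98 in mouse 4 and 8.55 in mouse 5, and was lower in mice 2 and 7, at 0.782 and 0.734 of the central value. The central library of mouse 5 held 166 Padi2 counts, 47.3% mitochondrial counts and 5392 genes with at least 10 counts, the fewest of all libraries, with a TMM factor of 0.547. The central libraries of mice 4 and 7 had 6681 and 6430 such genes and factors of 0.700 and 0.726, whereas the 6 GFP+ libraries had 9089 to 10231 genes and factors of 1.09 to 1.31. The part of these in the folds was not tested. Mouse 5 had its 2 peripheral libraries close together and far above its central library, whereas mouse 7 had its 2 GFP- libraries close together and far below its GFP+ library.

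**Figure D2:**
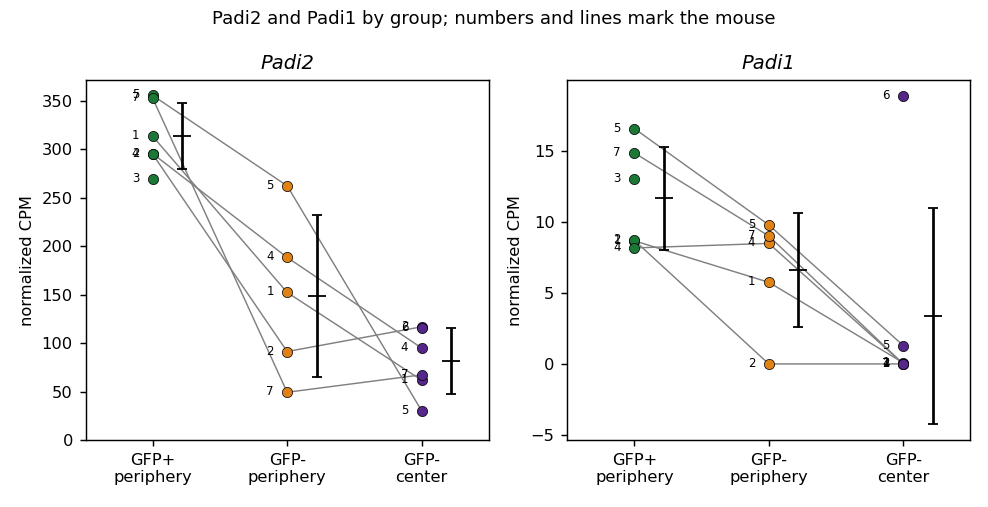
Normalized CPM of Padi2 (left) and Padi1 (right) in each library, with numbers and grey lines marking the mouse and black bars giving the mean ± SD of each group (n = 6, 5 and 6). The 6 GFP+ libraries lie above all GFP- libraries for Padi2 (270 to 356 CPM), and for Padi1 the central library of mouse 6 (18.8 CPM) lies above all others.

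The animal numbers fall into 2 runs, mice 1 to 3 and mice 4 to 7. In the first run Padi2 was 270 to 313 CPM in GFP+ RPE, 91.6 to 153 in peripheral GFP- RPE and 62.1 to 117 in central GFP- RPE. In the second run the ranges were 296 to 356, 49.6 to 262 and 30.7 to 116. GFP+ RPE was above the other groups in each run, which restates the lack of overlap over all libraries. The second run minus the first gave a log2 value of 0.43 for the Padi2 difference between GFP+ and central GFP- RPE, -0.28 for that between GFP+ and peripheral GFP- RPE and 0.71 for that between peripheral and central GFP- RPE. For Padi1 the same values were -6.25, -1.27 and -4.95. With so few libraries of a group in each run, they are given with no test.

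Since the mitochondrial share differed between the groups, Padi2 was set beside it within groups. In central GFP- RPE, Pearson's r was -0.800 (exact permutation p = 0.0597, adjusted 0.179) and Spearman's rho was -0.829 (exact permutation p = 0.0583, adjusted 0.175, n = 6). Without the 2 libraries farthest from the median share, r was -0.304, so that the relation rests on them. In GFP+ RPE, r was 0.557 (exact permutation p = 0.261, adjusted 0.392) and rho was 0.714 (exact permutation p = 0.136, adjusted 0.204, n = 6), and r without the 2 farthest libraries was 0.0381. The level of Padi2 was also set against that of Serpine3 in the 6 GFP+ libraries, with r = -0.294 (exact permutation p = 0.578, adjusted 0.578) and rho = -0.429 (exact permutation p = 0.419, adjusted 0.419), and with r = -0.505 without the 2 farthest libraries. None of these 3 relations passed, but without TMM factors that in central GFP- RPE did (r = -0.955, adjusted exact permutation p = 0.0125) and that with Serpine3 turned sign (r = 0.0559, adjusted exact permutation p = 0.932). The part of the mitochondrial share in the difference between groups was not tested.

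**Figure D3:**
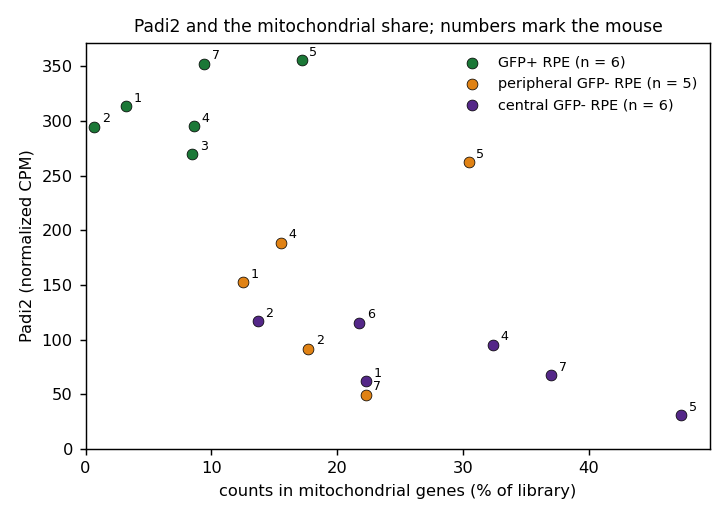
Padi2 (normalized CPM) against the share of counts in 13 mitochondrial genes (% of library) in the 17 libraries, colored by group and numbered by mouse. GFP+ libraries lie at the top left (270 to 356 CPM), and peripheral GFP- RPE of mouse 5 combines 262 CPM with a share above that of every GFP+ library.

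Padi1, the member known from epidermis, was detected in every GFP+ library, with 223, 183, 293, 108, 235 and 311 counts in mice 1, 2, 3, 4, 5 and 7, or 8.65, 8.69, 13.0, 8.15, 16.5 and 14.8 CPM. Peripheral GFP- RPE held 103, 0, 176, 123 and 91 counts in mice 1, 2, 4, 5 and 7, or 5.74, 0, 8.47, 9.77 and 9.0 CPM. Central GFP- RPE held 1, 0, 0, 7, 251 and 0 counts in mice 1, 2, 4, 5, 6 and 7. Padi1 was thus present in all GFP+ libraries and in 4 of 5 peripheral GFP- libraries, and in central cells it was near 0 except in mouse 6, where it reached 18.8 CPM, the highest value of all 17 libraries. Mouse 6 gave no library of another group.

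Group means of Padi1 were 11.6 ± 3.63 CPM (SD, n = 6) in GFP+ RPE, 6.60 ± 3.99 (n = 5) in peripheral GFP- RPE and 3.37 ± 7.59 (n = 6) in central GFP- RPE. The edgeR fits gave a log2 difference of 1.79 (SE 1.65) between GFP+ and central GFP- RPE, of 0.83 (SE 1.12) between GFP+ and peripheral GFP- RPE, and of 0.96 (SE 1.93) between peripheral and central GFP- RPE, each with an adjusted p of 1.00 in the quasi-likelihood test. A two-sided exact permutation test on log2(CPM + 1), added after the values were seen, gave a difference of 2.67 with p = 0.0152 (adjusted over the 3 comparisons, 0.0455) for GFP+ against central GFP- RPE. It gave 1.06 with permutation p = 0.0498 (adjusted 0.0747) against peripheral GFP- RPE, and 1.61 with permutation p = 0.132 (adjusted 0.132) for peripheral against central GFP- RPE. The smallest p that these groups allow is 0.00216. These permutations take the libraries as unpaired, and Padi1 did not pass the fit over all genes in any comparison.

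The fitted difference between GFP+ and central GFP- RPE was 5.21 (adjusted p = 0.456) without the central library of mouse 6, a library left out after its value was seen, and 7.56 under the replicate block (adjusted p = 0.509). Under that block the median of all genes tested was 0.57. On total counts without TMM factors, the permutation differences in the 3 comparisons were 2.98 (exact permutation p = 0.0130), 1.25 (exact permutation p = 0.00216) and 1.72 (exact permutation p = 0.106). In fits without these factors the medians of all genes tested were 0.48, 0.16 and 0.32. Within the 5 mice with all groups, Padi1 was above the central library in GFP+ RPE in 5 of 5 and above the peripheral GFP- library in 4 of 5, the exception being mouse 4 (8.15 against 8.47 CPM). Paired within these mice, the mean difference on log2(CPM + 1) was 3.31 ± 0.398 (SD, n = 5 mice) between GFP+ and central GFP- RPE (exact sign-flip permutation p = 0.0625, the smallest that 5 pairs allow), 1.02 ± 1.30 between GFP+ and peripheral GFP- RPE (exact permutation p = 0.125) and 2.29 ± 1.35 between peripheral and central GFP- RPE (exact permutation p = 0.125). With 5 pairs, this two-sided sign-flip test cannot pass 0.05.

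Per kilobase of exon, Padi1 was 3.10 ± 0.967 CPM in GFP+ RPE, 1.76 ± 1.06 in peripheral GFP- RPE and 0.897 ± 2.02 in central GFP- RPE. Padi2 exceeded it by 15.5 to 27.1 times on this scale in the 6 GFP+ libraries. The ratio was smaller in a pair of other libraries, 4.13 in peripheral GFP- RPE of mouse 7 and 4.60 in central GFP- RPE of mouse 6. Padi2 made up 96.2% ± 0.697 of all Padi counts in GFP+ RPE (n = 6), and its lowest shares were 84.7% (95% exact binomial interval 81.5 to 87.5) and 86.0% (84.3 to 87.6) in those same 2 libraries. These intervals cover counting error only, since no molecular identifiers are described. Over the 17 libraries, log2(CPM + 1) of Padi1 and Padi2 had a Pearson's r of 0.648, a description over libraries that share group and mouse. The r of their deviations from the group means was 0.237.

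The other members were at or near 0. Padi4, the granulocyte enzyme, had 73 counts in GFP+ RPE of mouse 1 (2.83 CPM), 60 in GFP+ RPE of mouse 2 (2.85 CPM) and 13 in peripheral GFP- RPE of mouse 1 (0.724 CPM), and 0 in the other 14 libraries. All 3 libraries with Padi4 thus came from mice 1 and 2 of the first run. Padi3, the hair follicle enzyme, had 1 count in peripheral GFP- RPE of mouse 4. Padi6, the oocyte member, had 1 count each in central GFP- RPE of mice 1, 2 and 5. None of the 3 passed the filter on low counts, so no difference between groups was tested for them.

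Markers of cells in which Padi genes are known were measured in the same libraries. Of 14 granulocyte and macrophage markers, only Csf1r was above the floor in a GFP+ library, with S100a8, S100a9, Mpo, Elane and Ptprc at 0 counts in every GFP+ library. Ptprc was above the floor in 2 peripheral GFP- libraries (at most 29 counts) and Ngp in 1 central library (32 counts). The summed level was 35.6 to 110.5 CPM in GFP+ RPE, 96.7 to 146 in peripheral and 68.4 to 116 in central GFP- RPE. Nearly all of each sum was Csf1r, which was above the floor in all 17 libraries. Of 8 keratinocyte markers, Krt1, Krt10 and Tchh were above the floor in each group, Krt5 and Lor had 0 counts in every library, and Krt14 and Ivl had at most 2. Their summed level was 10.9 to 59.4 CPM in GFP+ RPE, 33.1 to 62.0 in peripheral and 0.111 to 55.2 in central GFP- RPE. Of 7 oocyte markers, the summed level was at most 2.60, 1.51 and 5.77 CPM in the 3 groups, and of 5 skeletal muscle markers at most 3.47, 0.159 and 11.5 CPM.

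Of 7 oligodendrocyte markers, 3 were above the floor in GFP+ RPE, 4 in peripheral and 2 in central GFP- RPE, with summed levels of 16.6 to 57.7, 6.33 to 47.4 and 2.99 to 149 CPM. Of 6 Mueller glia markers, 1 was above the floor in GFP+ RPE and 3 in each of the other groups, with summed levels of 578 to 753, 440 to 775 and 376 to 678 CPM. The 6 markers of choroid endothelium and stroma summed to at most 10.5, 0.881 and 1.29 CPM. Mbp, for myelin basic protein, had mean levels of 24.9 CPM in GFP+ RPE (10.1 to 57.7), 10.5 in peripheral GFP- RPE (0.198 to 21.2) and 10.0 in central GFP- RPE (0 to 24.4) and was not called (adjusted p = 1.00 in each comparison). Glul, the glutamine synthetase gene, made up most of the Mueller glia sum, with 667 ± 65.8, 622 ± 126 and 557 ± 101 CPM. Their part in the Padi2 level was not tested.

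In all, 10 neighbors within 250000 bases of the Padi cluster are rows of the table, and 8 of them passed the filter in each comparison. Of these 8, 0 were called in any comparison. Their median log2 difference was 0.41 between GFP+ and central GFP- RPE, -0.13 between GFP+ and peripheral GFP- RPE and 0.47 between peripheral and central GFP- RPE, beside medians of all genes tested of 0.00067, 0.013 and 0.0091. Sdhb, a subunit of succinate dehydrogenase and the nearest expressed neighbor beyond Padi2, had 193 ± 63.4, 185 ± 15.9 and 205 ± 98.8 CPM in GFP+, peripheral and central RPE. Its differences were -0.15 (SE 0.36), 0.09 (SE 0.24) and -0.21 (SE 0.36), with adjusted p of 1.00 in each. Arhgef10l, a guanine nucleotide exchange factor gene, had 8.17, 24.2 and 2.77 CPM, and its difference of 3.01 between peripheral and central GFP- RPE (SE 1.70, adjusted p = 1.00) did not pass the test. Fbxo42, an F-box subunit of a ubiquitin ligase, had 2.23, 6.52 and 12.1 CPM, and its difference of -2.50 between GFP+ and central GFP- RPE (SE 1.60, adjusted p = 1.00) did not pass either. Rcc2, Atp13a2, Crocc, Necap2 and Szrd1 were the others tested, and Mfap2 and Spata21 did not pass the filter.

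**Figure D4:**
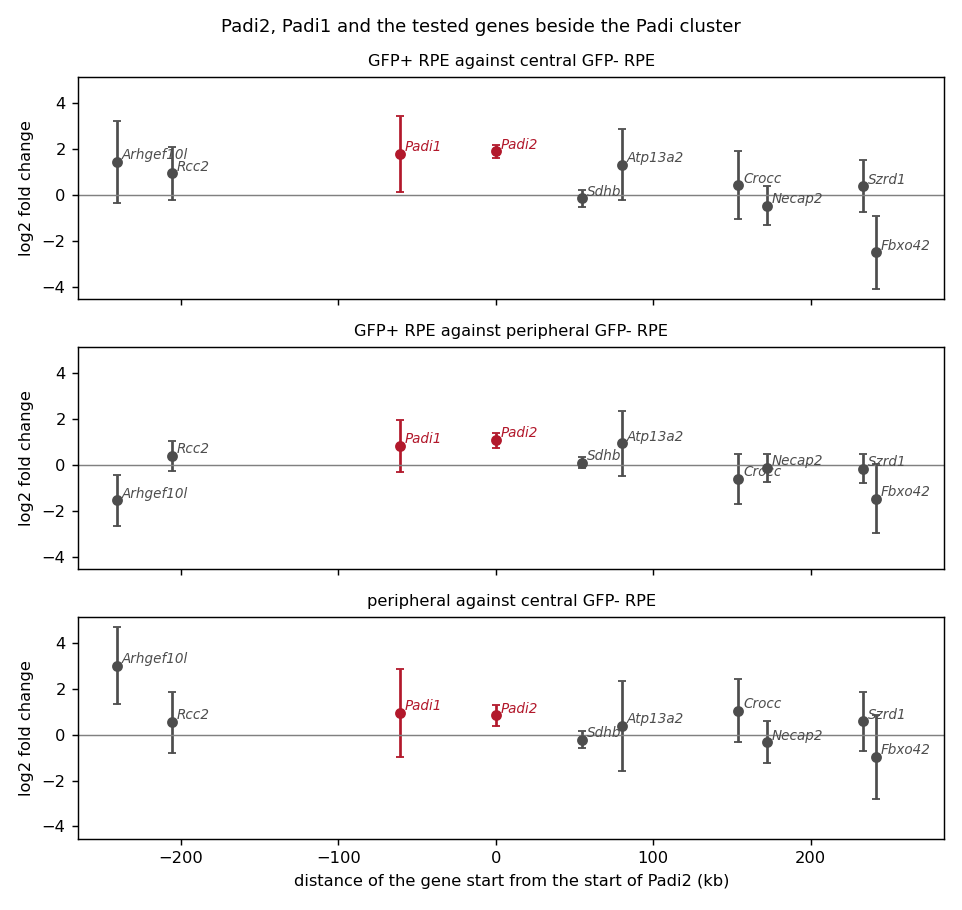
Fitted log2 fold change ± SE in the 3 comparisons for Padi1, Padi2 (red) and the 8 tested neighbors (grey), placed by the distance of each gene start from that of Padi2 in kb. Padi2 lies at 1.91, 1.08 and 0.84 with SE of 0.29, 0.33 and 0.45, Sdhb stays near 0, and the other genes have wider errors.

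The genes that supply or handle arginine and free citrulline, the arginine methyltransferases that modify the same residue, and known substrates of citrullination were each described as a list. Of 18 genes for free citrulline and arginine, 6 passed the filter in each comparison, 4 were higher and 2 lower in each, and 0 were called. Their medians were 0.29 between GFP+ and central GFP- RPE, 0.37 between GFP+ and peripheral GFP- RPE and 0.35 between peripheral and central GFP- RPE. Oat, the ornithine aminotransferase, had 312 ± 109, 250.2 ± 59.6 and 231 ± 140 CPM in GFP+, peripheral and central RPE. Nos1, which makes citrulline from arginine, had 43.6, 46.9 and 48.6 CPM, and Azin2, an antizyme inhibitor, had 47.9, 28.2 and 39.6 CPM. Ddah1, which frees citrulline from methylated arginine, had 45.5, 32.4 and 12.9 CPM, with a difference of 1.82 between GFP+ and central GFP- RPE (SE 1.26, adjusted p = 1.00).

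Of 9 protein arginine methyltransferase genes, 8 passed the filter and 0 were called. Between GFP+ and peripheral GFP- RPE, 8 of 8 were higher with a median of 0.99, beside 5131 of the 10102 genes tested with a median of 0.013. Between peripheral and central GFP- RPE 7 of 8 were lower with a median of -1.05, beside 4732 of 9535 genes with a median of 0.0091. These comparisons share the peripheral libraries. Between GFP+ and central GFP- RPE, 4 were higher and 4 lower, with a median of 0.12. Prmt5 had 13.0, 9.77 and 10.4 CPM in GFP+, peripheral and central RPE, and Carm1 had 11.9 ± 11.4, 4.56 ± 4.85 and 8.19 ± 12.4. Prmt1 had 8.87, 7.08 and 14.1 CPM, and Prmt3 had 7.06, 4.57 and 13.1. All were low, and the SD of Carm1 was as large as its mean or nearly so.

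Of 28 genes for known citrullinated proteins, 15 passed the filter between GFP+ and central GFP- RPE (9 higher, 6 lower, median 0.09, 0 called), 17 between GFP+ and peripheral GFP- RPE (10 higher, 7 lower, median 0.30, 1 called) and 14 between peripheral and central GFP- RPE (8 higher, 6 lower, median 0.02, 0 called). The called gene was Vim, for the intermediate filament protein vimentin, with 166 ± 48.4 CPM in GFP+ RPE, 33.7 ± 10.8 in peripheral GFP- RPE and 74.9 ± 44.1 in central GFP- RPE. Vim was 5.03-fold higher in GFP+ than in peripheral GFP- RPE (log2 2.33, SE 0.30, edgeR quasi-likelihood adjusted p = 0.00392), and these groups did not overlap. Against central GFP- RPE its difference was 1.12 (adjusted p = 0.420), and between peripheral and central GFP- RPE it was -1.19 (adjusted p = 1.00). The call was lost under the replicate block (adjusted p = 0.0967) and when any of 7 libraries was left out, while the difference was 2.24 under the block and 2.20 to 2.51 as libraries were left out. Eno1, the glycolytic enolase, had 1752, 1196 and 1726 CPM, H3f3a, a histone H3.3 gene, had 713, 735 and 1008, Pkm, the pyruvate kinase, had 480, 309 and 359, and H3f3b had 435, 360 and 343. None of these 4 passed the test in any comparison.

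**Figure D5:**
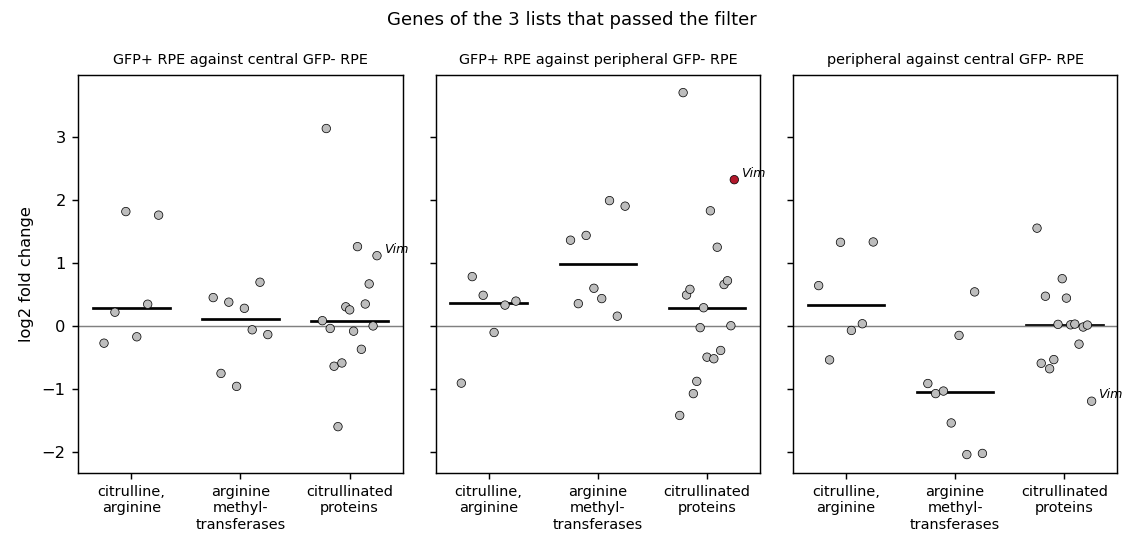
Fitted log2 fold change of each list gene that passed the filter in the 3 comparisons, with a black line at the median of each list and the called gene in red. Vim between GFP+ and peripheral GFP- RPE is the called gene, and the median of the arginine methyltransferases is 0.99 in that panel and -1.05 in the next.

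The genes most like Padi2 were sought by Pearson's r of log2(CPM + 1) over the 17 libraries among 10617 genes. These were Cxxc5, a CXXC zinc finger protein (r = 0.913), Nckipsd, an adaptor that binds NCK (0.867), Asb16, an ankyrin repeat protein (0.854), Akr1b10, an aldo-keto reductase (0.849), and Gin1 (0.841). Cxxc5 had 19.2 ± 5.75 CPM in GFP+ RPE, 4.98 ± 2.93 in peripheral GFP- RPE and 0.537 ± 0.686 in central GFP- RPE. Akr1b10 had 12.5 ± 6.16, 2.37 ± 4.90 and 0.0185 ± 0.0453 CPM, with central RPE below the floor. Nckipsd had 10.1, 2.35 and 2.22 CPM, Asb16 had 9.25, 5.34 and 0.279, and Gin1 had 36.2, 30.0 and 11.9. These likenesses follow in part from the groups: by the deviations of each library from its group mean, 0 of the 5 remained among the 5 nearest genes, and by Spearman's rho 1 did. The r of these deviations was 0.809 for Gin1 (rank 10), 0.759 for Nckipsd (rank 45), 0.711 for Cxxc5 (rank 107), 0.645 for Asb16 (rank 277) and 0.488 for Akr1b10 (rank 1153).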

How the data were processed

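Counts were analysed in 17 libraries of hand-picked mouse RPE cells. The authors deposited values taken here as estimated counts, in whole numbers and not normalized, with 1 row per gene symbol. The submitters' processing notes name fastp, Salmon and GRCm38.p6 without roles, and strand use is not given in the sources used here. Groups and mice came from the sample labels. All 17 columns were matched by name, and 0 were left unused. Methods text gives another number of cells per pool than the labels, and the labels' number is used.

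Total counts were 9896118 to 22467079 per library. CPM used TMM factors over the 17 libraries. Comparisons used edgeR (version 4.0.16, R version 4.3.3): default filter, TMM, quasi-likelihood test and Benjamini-Hochberg adjustment over all genes tested, with only the libraries compared. The study's methods name DESeq2 (version 1.42.0), which was an alternative. Exon lengths came from GENCODE M21, in which 21824 symbols (98.1%) matched. The procedure was tested on simulated counts. Figures used matplotlib (version 3.10.9).

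Named genes are the members, overlapping genes, neighbors, called and up to 4 most abundant genes of each list, and the 5 genes most like Padi2. In sentences giving an adjusted p without a tool, it is that of edgeR. Members and lists were chosen with earlier results of these data known. Alternatives were DESeq2, other scaling and filters, all 3 groups, the run as a covariate, the replicate block and each library left out. Libraries of the same number came from the same animal, which pairs them, although their deviations from group means were hardly correlated (r from -0.0195 to 0.0922 over 15 pairs). No library duplicated another. P-values measure the spread between libraries only.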

Additional observations from a re-analysis of the deposited data

Results flagged for a closer look

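Values of 34 named genes were checked in each group for a library far from the others, in 90 groups of values, and 14 stood out. The rule is meant to flag about 1 in 20 by chance. Many of these groups hold low values or 0, and the genes share libraries, so 14 of 90 cannot be set against that rate. Among the members, Padi1 was 18.8 CPM (251 counts) in central GFP- RPE of mouse 6, with the next at 1.29, and Padi4 was 0.724 CPM (13 counts) in peripheral GFP- RPE of mouse 1, where all others were at 0. Serpine3 in the same peripheral library was 0.279 CPM (5 counts), with the others at 0.

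Of the neighbors, Arhgef10l was 13.2 CPM in central GFP- RPE of mouse 1, Crocc was 25.3 in that of mouse 6 and Fbxo42 was 47.4 in that of mouse 7. Szrd1 was 46.7 CPM in peripheral GFP- RPE of mouse 7, and Mfap2, a microfibril protein gene, was 5.84 in GFP+ RPE of mouse 5 and 0.433 in peripheral GFP- RPE of mouse 4. Of the arginine methyltransferases, Prmt5 was 32.6 CPM in peripheral GFP- RPE of mouse 2, and Prmt3 was 16.1 in that of mouse 5 and 58.9 in central GFP- RPE of mouse 7. Of the genes most like Padi2, Asb16 was 20.0 CPM and Akr1b10 was 11.1 CPM in peripheral GFP- RPE of mouse 5, which also had the highest Padi2 of its group (262 CPM). Each of these was above the other libraries of its group.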

How the results depend on the processing

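The Padi2 difference between GFP+ and central GFP- RPE kept its direction under 21 alternatives, from 1.76 to 2.32 (replicate block, 2.15). Its difference from peripheral GFP- RPE was 0.64 to 1.42 over 22 alternatives (adjusted p = 0.155 to 1.00, the lowest with DESeq2), and that between peripheral and central GFP- RPE was 0.54 to 1.27 over 22 (adjusted p = 0.507 to 1.00), and none passed. Without TMM factors the medians of all genes were 0.48, 0.16 and 0.32 in the 3 comparisons. Under the replicate block these medians were 0.57, 0.066 and 0.49, so its differences are not on the same footing as those of the main fits. The Padi1 difference between GFP+ and central GFP- RPE was 5.21 without the central library of mouse 6, 3.21 with the run as a covariate and 7.56 with the replicate block, its adjusted p being 0.456 to 1.00 over 21 alternatives, and that between peripheral and central GFP- RPE was 5.91 with the replicate block. DESeq2 gave Padi1 no p in these 2 comparisons. In the fits over all genes with the replicate block, Padi1 was called in no comparison. Padi2 was not called in the comparisons with peripheral GFP- RPE, and its contrast with central GFP- RPE is given with no test.

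Between GFP+ and peripheral GFP- RPE, the list genes called numbered 0 with the run as a covariate, with all 3 groups in the fit, with the replicate block and without peripheral mice 2 and 7, and 0 to 1 as each library was left out. The Vim call was lost without GFP+ mice 1, 2 or 4 or peripheral mice 1, 2, 5 or 7 (adjusted p up to 0.0254). The relation of Padi2 with Serpine3 reversed without TMM factors (r = 0.0559, adjusted exact permutation p = 0.932), and that with the mitochondrial share in central GFP- RPE passed (r = -0.955, adjusted exact permutation p = 0.0125). Of the 5 genes most like Padi2, 1 remained by Spearman's rho and 0 by deviations from group means. The cause of these changes was not tested. The numbers of genes called over the whole table differed with the tool: DESeq2 called 82 higher and 120 lower between GFP+ and central GFP- RPE, and 37 higher and 30 lower between GFP+ and peripheral GFP- RPE. Padi3, Padi4 and Padi6 did not pass the filter in the main comparisons.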
